A study of Mus musculus with 6 samples.

Results

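Purinergic signalling is the use of extracellular nucleotides and adenosine as messengers between cells. The genes described here were 10 of the 17469 genes in the deposited count table, chosen by name: the P2 receptors P2rx4, P2rx7, P2ry2, P2ry6, P2ry12, P2ry13 and P2ry14, the adenosine receptors Adora2a and Adora2b, and the ectonucleotidase Entpd1. All 10 had enough counts to be tested. The cells were tdTomato+ OB progenitors, sorted from cultured bone marrow stromal cells (BMSCs) of untreated 6-month-old mice. The 3 control libraries came from Ocn-Cre;Ai9 mice, in which Cre under the osteocalcin promoter switches on the red reporter tdTomato of the Ai9 allele. The 3 other libraries came from TgAPPswe;Ocn-Cre;Ai9 mice (TgAPPsweOCN;Ai9), which carry the same 2 alleles and in addition human APP with the Swedish mutation, under the CAG promoter and behind a stop cassette that Cre removes. The comparison asks what expression of APPswe in OCN-Cre+ cells changes in their transcripts. The labels give no number of mice behind a library, so p-values measure the spread between these libraries, which may be technical.

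ATP and other nucleotides leave cells that are damaged, stretched or activated. P2X receptors are cation channels that ATP opens, whereas P2Y receptors are G protein-coupled receptors that sense ATP, ADP, UTP, UDP or UDP-sugars. Entpd1 (CD39) removes phosphates from extracellular ATP and ADP, a further enzyme (Nt5e, CD73) turns the resulting AMP into adenosine, and adenosine receptors raise or lower cAMP. In bone these receptors are best known from macrophages and osteoclast precursors, and several of them are also used by osteoblasts.

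In TgAPPsweOCN;Ai9 cells 2 of the 10 genes were up-regulated and 5 were down-regulated, where a call required both a Benjamini-Hochberg adjusted p of at most 0.05 in edgeR's quasi-likelihood test and a log2 fold change of 1 or more in size. Adora2a and P2ry2 rose, and P2rx7, P2ry12, P2ry13, P2ry14 and Entpd1 fell. P2rx4 and P2ry6 passed the adjusted p but not the fold change, and Adora2b passed neither. Of the 12701 genes tested, 8.9% were called up and 9.2% were called down, so the share of called genes was 18.1% overall. By adjusted p alone 3 of the 10 genes were higher and 6 lower, against 32.5% and 31.5% of all genes, or 64% in either direction. The libraries of the genotypes did not overlap for 9 of the 10 genes, and for 69.7% of all genes in TMM-scaled CPM. The median log2 fold change of the 10 genes was -0.86, against -0.0192 over all genes tested.

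The libraries held 19340810 to 19801060 estimated counts in the control and 21677461 to 22037840 in TgAPPsweOCN;Ai9. The targeted gene App, whose mouse and human reads cannot be separated in these files, lay at 279 ± 3.5 FPKM (SD, n = 3) in the control and 330 ± 4.18 in TgAPPsweOCN;Ai9, with a log2 fold change of 0.45 (edgeR adjusted p = 7.87e-05). FPKM are fragments scaled by gene length and library size. Markers of myeloid cells were abundant: all 15 listed were tested, and their summed FPKM ran from 23400 to 25080 in the control and from 18510 to 22170 in TgAPPsweOCN;Ai9. The sums of the genotypes did not overlap. Of these 15 markers 5 were called up and 4 down, against 8.9% and 9.2% of all genes tested. The 15 stromal and osteoblast-lineage markers summed to 158.8 to 177 FPKM in the control and 129 to 209.6 FPKM in TgAPPsweOCN;Ai9. Of the 14 tested, 2 were called up and 0 down, against the same shares of all genes. By adjusted p alone 4 were higher and 2 lower, against 32.5% and 31.5% of all genes. Bglap, the osteocalcin gene itself, had too few counts to be tested. The label of OB progenitors therefore stands beside high levels of myeloid genes in both genotypes. In bulk RNA a change in the number of cells of a type cannot be told apart from a change of RNA within those cells. The part of cell composition in any difference given here was not tested.

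The genes lie in groups on the genome (GRCm38, the mm10 build that the submitters' notes name, with GENCODE M21 annotation). P2ry12 (chr3:59216272-59262871, minus strand), P2ry13 (chr3:59207892-59210882, minus) and P2ry14 (chr3:59113855-59153618, minus) stand in a row inside the gene Med12l, which runs on the other strand. P2rx7 (chr5:122643911-122691432, plus) and P2rx4 (chr5:122707544-122729738, plus) are neighbours 16.1 kb apart, and P2ry6 (chr7:100937630-100974649, minus) and P2ry2 (chr7:100996568-101012866, minus) are 21.9 kb apart. Adora2a (chr10:75316877-75334784, plus), Adora2b (chr11:62248984-62266453, plus) and Entpd1 (chr19:40612366-40741602, plus) lie alone. The promoters of neighbours are printed because the neighbours on chromosome 3 all fell, whereas those on chromosomes 5 and 7 differed in direction. Each is the 250 bases before a transcript start in RefSeq's GRCm38.p6 annotation, read 5′ to 3′ on the gene's strand, with motif matches in capitals.
P2ry12 promoter (chr3:59262986-59263235, minus): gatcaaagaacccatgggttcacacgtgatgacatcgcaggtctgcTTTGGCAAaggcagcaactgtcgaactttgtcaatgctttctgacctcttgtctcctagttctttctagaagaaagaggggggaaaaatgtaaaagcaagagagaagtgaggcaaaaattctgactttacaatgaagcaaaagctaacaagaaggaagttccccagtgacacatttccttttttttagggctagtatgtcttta
P2ry13 promoter (chr3:59210883-59211132, minus): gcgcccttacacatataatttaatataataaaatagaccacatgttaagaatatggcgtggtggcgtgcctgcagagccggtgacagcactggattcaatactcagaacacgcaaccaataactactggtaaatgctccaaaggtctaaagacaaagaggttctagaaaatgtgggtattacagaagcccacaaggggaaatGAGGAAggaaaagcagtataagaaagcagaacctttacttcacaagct
P2ry14 promoter, the first of its starts (chr3:59153493-59153742, minus): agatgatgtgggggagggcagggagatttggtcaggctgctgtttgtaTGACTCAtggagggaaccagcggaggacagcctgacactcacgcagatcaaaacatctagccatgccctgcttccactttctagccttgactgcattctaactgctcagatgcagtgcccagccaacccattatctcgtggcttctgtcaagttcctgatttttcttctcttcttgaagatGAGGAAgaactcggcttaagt
P2rx7 promoter, the first of its starts (chr5:122643677-122643926, plus): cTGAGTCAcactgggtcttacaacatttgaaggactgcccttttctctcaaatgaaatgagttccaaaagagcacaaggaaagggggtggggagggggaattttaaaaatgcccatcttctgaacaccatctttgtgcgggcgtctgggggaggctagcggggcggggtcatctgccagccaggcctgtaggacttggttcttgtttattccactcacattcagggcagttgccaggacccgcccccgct
P2rx4 promoter (chr5:122707294-122707543, plus): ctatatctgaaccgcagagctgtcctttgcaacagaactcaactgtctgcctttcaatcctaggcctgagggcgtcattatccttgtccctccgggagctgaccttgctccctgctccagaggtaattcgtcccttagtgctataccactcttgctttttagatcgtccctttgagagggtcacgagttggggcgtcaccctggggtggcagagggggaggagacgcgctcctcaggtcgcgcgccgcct
P2ry2 promoter, the second of its starts (chr7:101011999-101012248, minus): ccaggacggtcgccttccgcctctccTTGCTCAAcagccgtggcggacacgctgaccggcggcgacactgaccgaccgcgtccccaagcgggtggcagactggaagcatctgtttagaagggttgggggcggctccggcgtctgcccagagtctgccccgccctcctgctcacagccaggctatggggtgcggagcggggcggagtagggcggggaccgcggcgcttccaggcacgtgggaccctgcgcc

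The capitals mark a C/EBP motif (TTGCNNAA) 204 bases before the P2ry12 start, a PU.1-type ETS core (GAGGAA) 48 bases before the P2ry13 start, an AP-1 motif (TGANTCA) 249 bases before the P2rx7 start and a C/EBP motif 224 bases before the P2ry2 start. A distance counts from the motif's first base on the gene's strand. Both strands were searched, and windows of the same length before 32817 RefSeq starts held the C/EBP motif in 9.57%, the ETS core in 23.3% and the AP-1 motif in 6.75% of cases. The P2rx4 window held none of the 6 motifs searched, the others being CRE (TGACGTCA, in 1.55% of windows), NF-kB (GGGNNTTCC, 4.97%) and IRF (GAAANNGAA, 7.12%). P2ry14 has 4 starts in the table, each with the ETS core in its window, and the windows of some of them overlap. In the window printed the core lies 21 and an AP-1 motif 202 bases before the start. Start 2 also had an AP-1 motif, and start 4 had 2 C/EBP motifs and an NF-kB motif. The window of the second P2rx7 start held no motif of the 6. A promoter window was at hand for 8 of the 10 genes, not for P2ry6 and Adora2a. The P2ry12 and P2ry13 windows, whose genes fell by a similar amount, shared no motif of the 6. The GC content was 41.6% in both of these windows, 53.6% in that of P2rx7, 57.2% in that of P2rx4 and 71.2% in that of P2ry2. A match is a run of letters and not evidence of binding.

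The P2X receptors were represented by P2rx4, which sits largely in lysosomes and recycles to the surface, and P2rx7, a channel of low ATP affinity that drives inflammasome activation in macrophages. P2rx7 (Entrez 18439) lay at 30.47, 25.87 and 27.81 FPKM in the 3 control libraries and at 9.9, 13.1 and 11.93 FPKM in the TgAPPsweOCN;Ai9 libraries. The genotypes did not overlap, and even the highest TgAPPsweOCN;Ai9 library stayed well under the lowest control library. P2rx7 fell with a log2 fold change of -1.05 (SE 0.102, 95% interval -1.28 to -0.81), a 2.06-fold lower level (edgeR adjusted p = 3.46e-05). The call sat on the fold change threshold, since the log2 fold change was -0.99 without control replicate 1 and -0.94 without TgAPPsweOCN;Ai9 replicate 1, with adjusted p of 0.000145 and 3.23e-05. An exon of P2rx7 also contains the microRNA gene Mir8115 on the same strand, which covers 119 of the 5970 exonic bases of P2rx7.

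P2rx4 (Entrez 18438) was steady between replicates. Its FPKM was 95.81, 92.78 and 92.43 in the control and 104.37, 109.74 and 105.48 in TgAPPsweOCN;Ai9, so each TgAPPsweOCN;Ai9 library stood above each control library. In edgeR with TMM scaling P2rx4 had a log2 fold change of 0.40 (SE 0.0501, 95% interval 0.28 to 0.51, adjusted p = 0.000153) or 1.32-fold, under the fold change threshold. With scaling by library size only this log2 fold change was 0.18 (adjusted p = 0.00994). The ratio of P2rx7 to P2rx4 FPKM was 0.299 ± 0.0196 in the control and 0.109 ± 0.0127 in TgAPPsweOCN;Ai9 (p = 0.1 in a two-sided exact permutation test, which cannot go lower with 3 libraries a side). The summed FPKM of both channels was 122 ± 4.03 in the control and 118 ± 4.34 in TgAPPsweOCN;Ai9, with overlapping libraries (exact permutation p = 0.4). This ratio of 0.971 changed to 1.04 with TMM-scaled CPM in place of FPKM.

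The P2Y receptors that couple to Gq and release calcium differed in direction. P2ry6, a receptor for UDP known for promoting phagocytosis in microglia, was the most abundant of the 10 genes in both genotypes. Its FPKM was 260.35, 241.6 and 243.28 in the control and 146.35, 123.84 and 131.77 in TgAPPsweOCN;Ai9, with a wide gap between the genotypes. P2ry6 (Entrez 233571) had a log2 fold change of -0.67 (SE 0.0812, 95% interval -0.86 to -0.49, edgeR adjusted p = 0.000121), a 1.6-fold lower level that did not reach the fold change threshold.

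P2ry2, a receptor for ATP and UTP, rose from a low level. In the control its FPKM was 4.29, 3.05 and 3.41, and in TgAPPsweOCN;Ai9 it was 8.43, 9.29 and 9.06. No TgAPPsweOCN;Ai9 library came near the control range. The log2 fold change of P2ry2 (Entrez 18442) was 1.54 (SE 0.121, 95% interval 1.27 to 1.82), a 2.91-fold higher level (edgeR adjusted p = 9.54e-06). Per P2ry6 FPKM, P2ry2 went from 0.0144 ± 0.00195 to 0.0671 ± 0.00882 (exact permutation p = 0.1), although the 2 genes lie next to each other on the same strand. P2ry6 still held most of the Gq-coupled transcripts, whose summed FPKM was 252 ± 11 in the control and 143 ± 11 in TgAPPsweOCN;Ai9 (exact permutation p = 0.1).

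**Figure D1:**
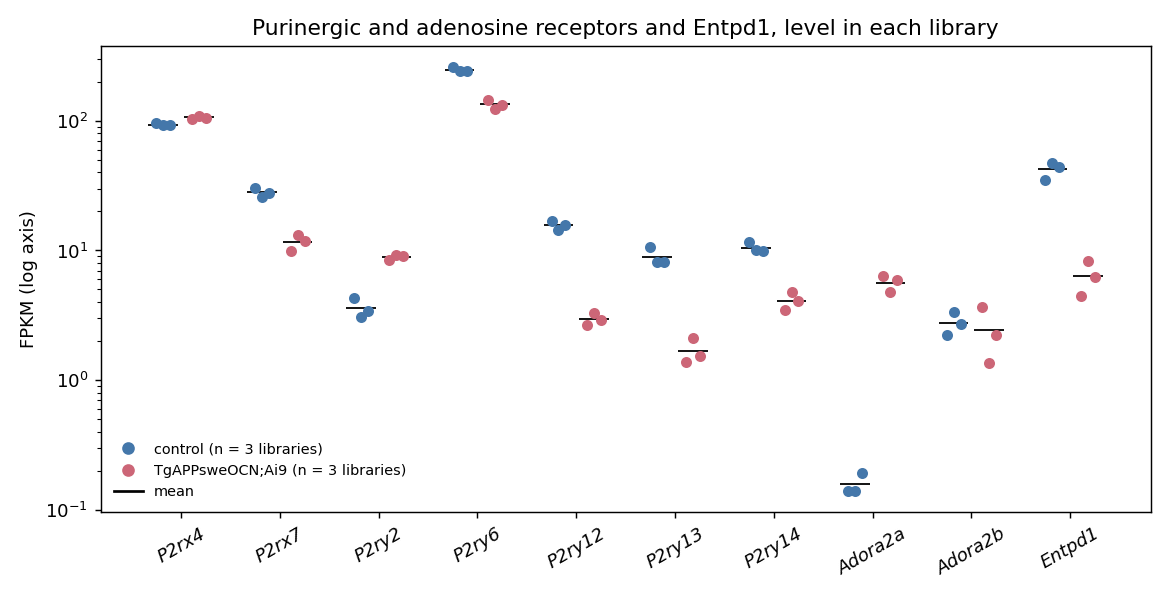
FPKM (log axis) of the 10 genes in each library, with the 3 control libraries in blue, the 3 TgAPPsweOCN;Ai9 libraries in red and a line at each mean. The genotypes are apart for every gene except Adora2b, and Adora2a goes from under 0.2 FPKM in the control to between 4.75 and 6.3 FPKM in TgAPPsweOCN;Ai9.

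All 3 Gi-coupled P2Y receptors fell. P2ry12, the ADP receptor that marks resting microglia and serves platelets as the target of clopidogrel, lay at 16.9, 14.35 and 15.71 FPKM in the control and at 2.65, 3.32 and 2.93 FPKM in TgAPPsweOCN;Ai9. The replicates of each genotype were close to each other and the gap between genotypes was several times their spread. P2ry12 (Entrez 70839) had a log2 fold change of -2.18 (SE 0.0992, 95% interval -2.41 to -1.96), a 4.55-fold lower level (edgeR adjusted p = 4.86e-07). Its exons share 9 bases with Med12l on the opposite strand, and Med12l itself was near the detection limit.

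P2ry13, a second ADP receptor, lay at 10.6, 8.16 and 8.1 FPKM in the control and at 1.38, 2.11 and 1.54 FPKM in TgAPPsweOCN;Ai9. Control replicate 1 was the highest of the 6 libraries, and all control libraries were above all TgAPPsweOCN;Ai9 libraries. The log2 fold change of P2ry13 (Entrez 74191) was -2.20 (SE 0.173, 95% interval -2.6 to -1.81), a 4.6-fold lower level (edgeR adjusted p = 9.63e-06). P2ry12 and P2ry13 are 5.39 kb apart, and their ratio in FPKM was 1.76 ± 0.173 in the control and 1.8 ± 0.195 in TgAPPsweOCN;Ai9 with overlapping libraries (exact permutation p = 1).

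P2ry14, which senses UDP-glucose and related UDP-sugars and is known from haematopoietic progenitors and neutrophil recruitment, fell less. It lay at 11.63, 10 and 9.88 FPKM in the control and at 3.5, 4.75 and 4.08 FPKM in TgAPPsweOCN;Ai9, without overlap. P2ry14 (Entrez 140795) had a log2 fold change of -1.12 (SE 0.124, 95% interval -1.41 to -0.84), a 2.18-fold lower level (edgeR adjusted p = 7.06e-05). The ratio of P2ry12 to P2ry14 FPKM accordingly was 1.49 ± 0.0848 in the control and 0.725 ± 0.0297 in TgAPPsweOCN;Ai9 (exact permutation p = 0.1). The summed FPKM of the 3 receptors was 39.1, 32.5 and 33.7 in the control and 7.53, 10.2 and 8.55 in TgAPPsweOCN;Ai9, a ratio of means of 0.249 (exact permutation p = 0.1).

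Gpr171 and Med12l, which lie at the chromosome 3 cluster, were at low levels. Gpr171, a receptor gene next to P2ry14, had 45, 33 and 30 counts in the control and 6, 19 and 7 counts in TgAPPsweOCN;Ai9, and fell with a log2 fold change of -1.69 (SE 0.416, edgeR adjusted p = 0.00676), having passed edgeR's filter only through the control libraries. Without TgAPPsweOCN;Ai9 replicate 2 that value was -2.37, within a range of -2.37 to -1.41 over the left-out libraries. Med12l, whose body spans the cluster, averaged 0.117 FPKM in the control and 0.0667 FPKM in TgAPPsweOCN;Ai9 and did not pass the test (log2 fold change -0.69, SE 0.349, adjusted p = 0.117). Gpr34, a related receptor on another chromosome that like P2ry12 is typical of microglia, fell from 11.39, 12.58 and 12.51 FPKM to 1.19, 2.2 and 1.44 FPKM (log2 fold change -2.75, SE 0.168, adjusted p = 2.43e-06). Summed FPKM of the megakaryocyte and platelet markers, nearly all of it from Pf4, ran from 527.9 to 638.1 in the control and from 117.6 to 266.3 in TgAPPsweOCN;Ai9, while 6 of these 8 markers were under 1 FPKM in every library.

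The adenosine receptors Adora2a and Adora2b both couple to Gs and raise cAMP, Adora2a at low and Adora2b at high adenosine concentrations. Adora2a (Entrez 11540) had the largest edgeR fold change of the 10 genes. It had 7, 7 and 9 counts in the control and 340, 257 and 313 counts in TgAPPsweOCN;Ai9, or 0.14, 0.14 and 0.19 FPKM against 6.3, 4.75 and 5.93 FPKM. The control libraries were all near the floor of 3 counts, so the size of the fold is uncertain. The gene passed edgeR's filter only through the TgAPPsweOCN;Ai9 libraries, where it is high, and was not tested when 10 counts were required in every library. The log2 fold change was 5.34 (SE 0.208, 95% interval 4.87 to 5.82), a 40.5-fold higher level (edgeR adjusted p = 2.25e-07). On the log2(FPKM + 1) scale, which shrinks changes of low genes, the difference in limma was 2.52, against -2.58 for Entpd1, so that Entpd1 had the larger change there.

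Adora2b (Entrez 11541) did not pass the test. Its FPKM was 2.21, 3.38 and 2.73 in the control and 3.65, 1.36 and 2.23 in TgAPPsweOCN;Ai9, where TgAPPsweOCN;Ai9 replicates 1 and 2 were the highest and the lowest of the 6 libraries. The log2 fold change was 0.02 (SE 0.338, adjusted p = 0.959), and its 95% interval of -0.75 to 0.80 covers rises as well as falls. The sign of this value also turned with the scaling and with the library left out. The ratio of Adora2a to Adora2b FPKM was 0.0633, 0.0414 and 0.0696 in the control and 1.73, 3.49 and 2.66 in TgAPPsweOCN;Ai9 (exact permutation p = 0.1). Adora2b was thus the higher of the pair in each control library and Adora2a in each TgAPPsweOCN;Ai9 library. Together their FPKM was 2.93 ± 0.585 in the control and 8.07 ± 1.92 in TgAPPsweOCN;Ai9 (exact permutation p = 0.1).

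Entpd1 encodes CD39, the enzyme that starts the conversion of extracellular ATP to adenosine. It lay at 35.23, 47.37 and 44.34 FPKM in the control and at 4.47, 8.33 and 6.27 FPKM in TgAPPsweOCN;Ai9. In both genotypes replicate 1 was the lowest, yet the genotypes were far apart. Entpd1 (Entrez 12495) fell with a log2 fold change of -2.52 (SE 0.198, 95% interval -2.98 to -2.07), a 5.75-fold lower level (edgeR adjusted p = 9.78e-06), and this was the largest fall among the 10 genes. Of all tested genes 71, or 0.559%, were called down with a change at least as large.

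**Figure D2:**
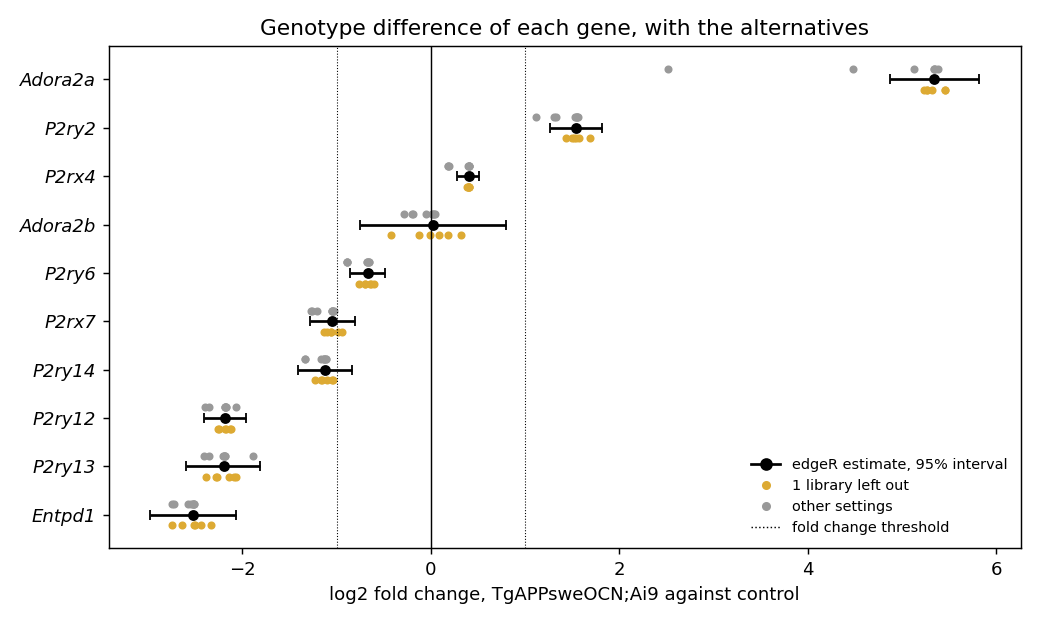
Log2 fold change of each gene in TgAPPsweOCN;Ai9 against control from edgeR (black, with the 95% interval), with the values after leaving out 1 library (orange, below) and under other settings (grey, above), and dotted lines at the fold change threshold. Only the interval of Adora2b spans 0, those of P2rx7 and P2ry14 reach across the threshold, and the grey point of Adora2a at 2.52 is the limma value on log2(FPKM + 1).

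The order of the levels by FPKM also changed. In the control it was P2ry6, P2rx4, Entpd1, P2rx7, P2ry12, P2ry14, P2ry13, P2ry2, Adora2b and Adora2a from high to low. Of the neighbours in this order, P2ry14 and P2ry13 overlapped between libraries, as did P2ry2 and Adora2b. In TgAPPsweOCN;Ai9 P2ry6 and P2rx4 were again the first, at 134 ± 11.4 and 107 ± 2.83 FPKM, followed by P2rx7, P2ry2, Entpd1, Adora2a, P2ry14, P2ry12, Adora2b and P2ry13. There Entpd1 overlapped with Adora2a, Adora2a with P2ry14, P2ry12 with Adora2b, and Adora2b with P2ry13. P2ry2 moved from the eighth place to the fourth, and Adora2a from the last to the sixth.

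The 9 receptors together amounted to 412 ± 18 FPKM in the control and 278 ± 7.58 FPKM in TgAPPsweOCN;Ai9 (exact permutation p = 0.1). P2ry6 held 60.3 ± 0.151% of this sum in the control and 48.2 ± 2.8% in TgAPPsweOCN;Ai9. The share of P2rx4 was 22.8 ± 0.551% and 38.4 ± 1.94%. The 3 Gi-coupled receptors went from 8.51 ± 0.476% to 3.16 ± 0.557%, and the adenosine receptors from 0.716 ± 0.169% to 2.89 ± 0.617%. P2ry2 made up 0.867 ± 0.116% and 3.22 ± 0.245%, and P2rx7 6.81 ± 0.294% and 4.2 ± 0.689%. For each of these shares the libraries of the genotypes did not overlap (exact permutation p = 0.1 for each). The total of the 9 receptors was not recomputed with TMM-scaled CPM. With that scaling the ratio of the Gq-coupled sum, the largest part of the total, was 0.678 in place of 0.567.

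**Figure D3:**
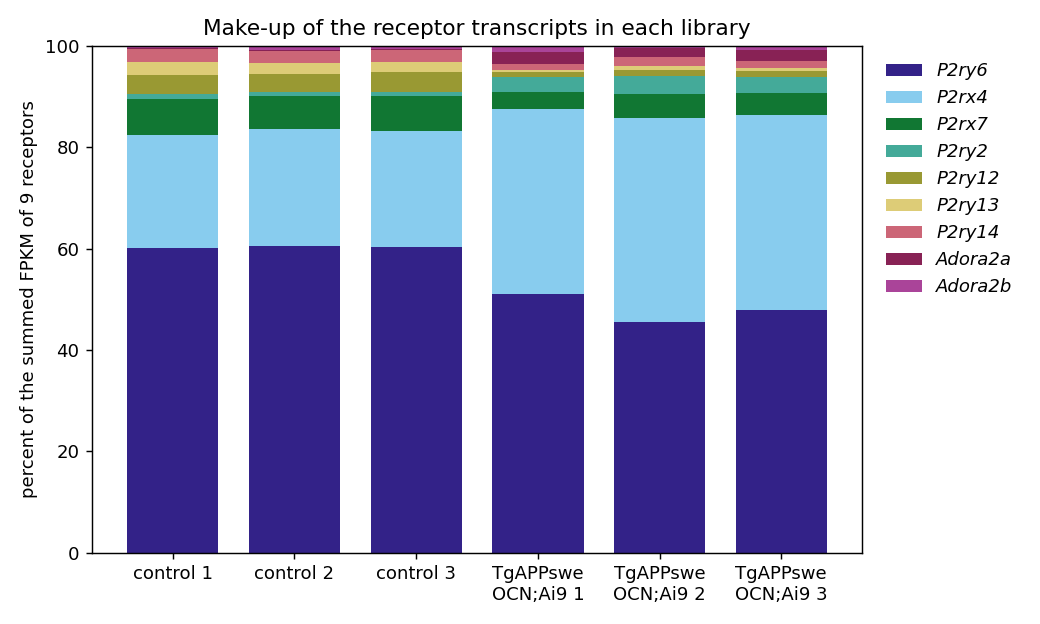
Share of each receptor in the summed FPKM of the 9 receptors, in percent, 1 bar for each library. The P2ry6 share lies between 60.2% and 60.5% in the control and between 45.5% and 51.1% in TgAPPsweOCN;Ai9, where the P2rx4 share is larger.

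Of 73 other genes of the pathway, listed by role, 71 were in the table and 51 could be tested. Among these 10 were called up and 1 was called down, 20 passed the adjusted p only and 20 did not pass, where 8.9% of all tested genes were called up, 9.2% were called down and 64% passed the adjusted p. The list was not tested as a set. Their median log2 fold change was 0.01. Of the remaining P2X and P2Y receptors most were near or under the detection limit, and P2rx1, P2rx2, P2rx3, P2rx6, P2ry4 and P2ry10 were too low to pass edgeR's filter. P2ry1, the Gq-coupled ADP receptor, fell from 1.07, 1.65 and 1.69 FPKM to 0.43, 0.56 and 0.43 FPKM (log2 fold change -1.39, SE 0.221, edgeR adjusted p = 0.000628). P2ry10b, a gene of the lysophospholipid-sensing P2Y10 group, rose from 5.59, 7.3 and 5.93 FPKM to 20.87, 18.54 and 20.52 FPKM (log2 fold change 1.89, adjusted p = 1.7e-06).

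Of the other adenosine receptors Adora1 was too low to be tested. Adora3, a Gi-coupled receptor known from mast cells, rose from 0.18, 0.39 and 0.09 FPKM to 0.75, 0.65 and 0.5 FPKM (log2 fold change 1.72, SE 0.446, adjusted p = 0.00877), all at low levels. Like Adora2a, it passed the filter only through the TgAPPsweOCN;Ai9 libraries and was not tested with 10 counts required in every library. For Adora3 the log2 fold change was 2.43 without control replicate 2, and it ran from 1.34 to 2.43 over the left-out libraries. Nt5e, named here after its values were seen because CD73 acts directly after Entpd1, averaged 0.143 FPKM in each genotype and did not pass the test (log2 fold change 0.19, SE 0.357, adjusted p = 0.663, with the sign turning under scaling by library size only). Of 10 other nucleotide hydrolases tested, 1 was called. This was Cd38, the NAD-consuming ectoenzyme, which rose from 1.85, 0.53 and 0.95 FPKM to 22.25, 12.21 and 17.81 FPKM (log2 fold change 4.19, SE 0.374, adjusted p = 2.05e-05). A further 3 of the 10 passed the adjusted p only, each with a higher level, and 6 did not pass, where 18.1% of all tested genes were called and 64% passed the adjusted p.

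Of the 8 tested genes of adenosine uptake and breakdown, 4 were called up and 3 passed the adjusted p only, of which 1 was higher and 2 were lower, against 8.9% called up and 64% past the adjusted p among all genes. The lower ones were the equilibrative nucleoside transporters Slc29a1 and Slc29a3, named here after their values were seen, with log2 fold changes of -0.25 and -0.48 (edgeR adjusted p = 0.0103 and 0.00354). Slc28a2, a concentrative purine nucleoside transporter, rose from 3.18, 2.37 and 2.17 FPKM to 43.6, 62.32 and 52.37 FPKM (log2 fold change 4.55, SE 0.161, adjusted p = 1.72e-07). Adk, adenosine kinase, which returns adenosine to AMP inside the cell, rose from 13.63, 11.07 and 11.83 FPKM to 41.29, 58.26 and 50.14 FPKM (log2 fold change 2.26, SE 0.126, adjusted p = 1.48e-06). Pnp and Pnp2, purine nucleoside phosphorylases, rose with log2 fold changes of 1.29 and 1.18 (adjusted p = 1.23e-06 and 0.00235), and Pnp2 lost its call without control replicate 2 (0.97). Pnp, Pnp2, Slc28a2, Slc29a3, Cd38, Adora3, P2ry4, P2ry10, P2ry10b and Med12l had fractional estimated counts, so reads shared with related sequences were divided between genes and their values are less certain. The 10 genes described first had whole-number counts throughout.

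Among genes of nucleotide release, Gja1, which encodes the hemichannel-forming connexin 43, rose from 15.36, 11.94 and 13.33 FPKM to 40.95, 32.01 and 36.93 FPKM (log2 fold change 1.65, SE 0.124, adjusted p = 7.44e-06). It was the 1 gene called of 4 tested, where 8.9% of all genes were called up and 64% passed the adjusted p. Of the other release genes tested, 1 was lower by adjusted p only and 2 did not pass. Of the 7 genes of the inflammasome route on which P2rx7 acts, 2 were called up, 2 passed the adjusted p only and 3 did not pass, against 8.9% called up and 64% past the adjusted p among all genes. Il1b, the cytokine released by this route, rose from 14.7 ± 1.4 to 144 ± 33.5 FPKM (log2 fold change 3.08, SE 0.432, adjusted p = 0.000296), and Casp1, the protease that matures it, from 50.6 ± 1.37 to 93.9 ± 5.81 FPKM (log2 fold change 1.11, adjusted p = 2.78e-06). The counts of Il1b in TgAPPsweOCN;Ai9 were 5001, 1319 and 3053 while its FPKM were 175.73, 146.43 and 108.84, so the count of replicate 2 was low for its FPKM. Without that library the log2 fold change of Il1b was 3.46, and over the left-out libraries it ran from 2.56 to 3.46. Casp1 dropped under the fold change threshold (0.89) when only library size was used for scaling. P2rx7 itself went the other way from Il1b and Casp1. Of the 18 tested G protein alpha subunits and effectors, 11 passed the adjusted p, 3 of them with a higher and 8 with a lower level, but stayed under the fold change threshold, and this share is near the 64% of all genes that passed. With scaling by library size only, Gnai1 and Plcb4 of this list also passed as called down, named here after their values were seen.

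**Figure D4:**
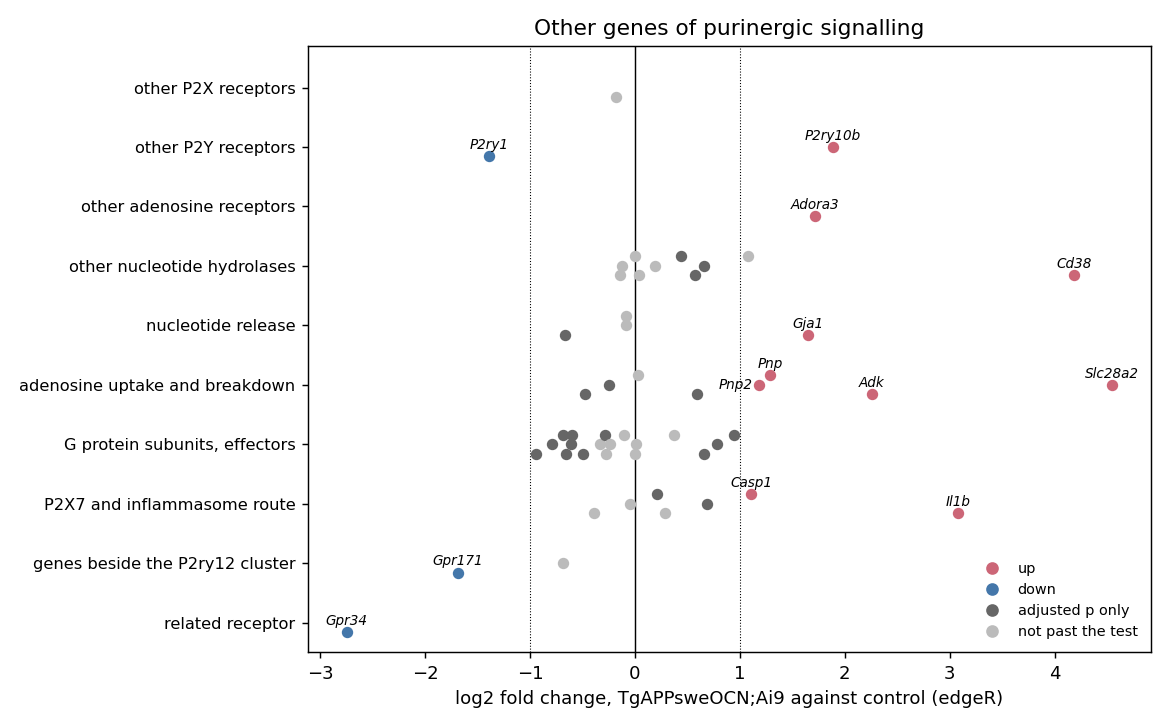
Log2 fold change in TgAPPsweOCN;Ai9 against control (edgeR) of the tested genes of each pathway list, of the genes beside the chromosome 3 cluster and of Gpr34, with called genes named and dotted lines at the fold change threshold. Of the 10 pathway genes called up, 4 belong to adenosine uptake and breakdown, and no G protein subunit or effector lies beyond a threshold.

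Markers of other cells that could carry purinergic receptors were set beside these values. Neutrophil markers summed to 54.4 to 107.8 FPKM in the control and 70.67 to 96.87 FPKM in TgAPPsweOCN;Ai9, dendritic cell markers to 16.41 to 41.24 and 8.16 to 18.74 FPKM, and osteoclast markers to 11.09 to 13.73 and 28.56 to 51.66 FPKM. Mast cell and basophil markers stayed between 1.23 and 1.87 FPKM and endothelial markers between 1.9 and 4.35 FPKM over all libraries. All 6 lymphocyte markers in the table were under 1 FPKM in every library. Of the 6 osteoclast markers 4 were tested, of which 2 were called up, 1 was lower by adjusted p only and 1 did not pass. Among all tested genes 8.9% were called up and 64% passed the adjusted p. In every library 3 of the 6 osteoclast markers were under 1 FPKM. Of the 3 dendritic cell markers tested, 1 was called up, against the same 8.9%, and 2 did not pass. The osteoclast sums were higher in each TgAPPsweOCN;Ai9 library, the dendritic sums overlapped, and the part of either in the receptor differences was not tested.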

How the data were processed

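RNA-seq was measured in sorted tdTomato+ OB progenitors of 3 control and 3 TgAPPsweOCN;Ai9 libraries, grouped by the genotype in the labels. The authors removed rRNA, adaptor and low-quality reads, and the submitters' processing notes list HISAT2 2.0.4, Bowtie2 2.2.5, RSEM 1.2.12, DESeq2 1.4.5 and the mm10 build without roles. The authors deposited estimated counts and FPKM values for the same genes, and in each library 13.3% to 14.4% of genes carried a fractional count. The authors also deposited their own comparison (log ratios and p-values), which was not used. The methods accept RNA of low integrity, and the strand of the libraries is not given in the sources used here.

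Counts were rounded and tested with edgeR 4.0.16 in R 4.3.3 (filterByExpr, TMM, quasi-likelihood test, design of genotype), with Benjamini-Hochberg adjustment over 12701 genes. SE is the log2 fold change divided by the root of F. The biological coefficient of variation was 9.85%, and the floor of 3 counts equalled 0.136 to 0.155 CPM, for counting error only. On simulated data 196 of 196 genes changed by a log2 fold of 2 were recovered, with 1 false call among 12674 genes. Few genes were changed there, all well past the fold change threshold, whereas 64% of tested genes passed the adjusted p in the data. The simulation therefore gives no error rate for broad change or for calls near the threshold. Sums and ratios of FPKM were compared by exact two-sided permutation tests. The median squared difference of a gene's counts between a pair of libraries was 2.45 to 5.67 times that of sampling alone within a genotype, and 42.3 to 51.3 times between genotypes.

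The members, lists and tests were chosen with earlier results of these data known. Named genes are the 10 members, App, every gene of the pathway and neighbour lists past both thresholds, neighbours or other subtypes of members, and defining genes of the marker lists (Bglap, Pf4). Nt5e, Gnai1, Plcb4, Slc29a1 and Slc29a3 fall outside this rule. Alternatives were DESeq2 1.42.0, RLE size factors, library size only, 2 other filters (1 count in any library, or 10 in every library), a replicate block, limma 3.58.1 on log2(FPKM + 1) or log2(FPKM + 0.1), adjusted p alone, TMM-scaled CPM for the sums, and each library left out in turn. For named genes other than the 10 members these were added after seeing the data. Tables and plots were made in Python 3.11.15 with pandas 2.3.3, numpy 2.4.6, scipy 1.17.1 and matplotlib 3.10.9.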

Additional observations from a re-analysis of the deposited data

How the results depend on the processing

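The calls of P2ry2, P2ry12, P2ry13, P2ry14 and Entpd1, and the sides on which P2rx4 and P2ry6 fell, held under all alternatives run. Adora2a held in each fit that tested it, and 1 gene in place of 2 was up-regulated with at least 10 counts in every library because Adora2a was then left out. P2rx7 lost its call without control replicate 1 (-0.99) and without TgAPPsweOCN;Ai9 replicate 1 (-0.94). Leaving out 1 library gave 2 up-regulated and 4 to 5 down-regulated of the 10 genes, 1103 to 1150 up and 1125 to 1262 down of all genes, and 10 to 11 up and 1 to 2 down of the pathway genes. The second pathway gene down appeared without control replicate 3 or TgAPPsweOCN;Ai9 replicate 2. With adjusted p alone 3 and 6 of the 10 genes, 4122 and 4007 of all genes, and 19 and 12 of the pathway genes were up and down. Limma on log2(FPKM + 1), which shrinks low genes, called 593 genes up and 0 pathway genes down. Library size alone moved the median of all genes to -0.234 from -0.0192, split the calls into 846 up and 1732 down (main 1130 and 1169), and gave 3 pathway genes down, as did the fit without a filter (3). On log2(FPKM + 1) and log2(FPKM + 0.1) that median was -0.161 and -0.219.

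Nt5e turned to -0.02 with library size only and without control replicate 2 (-0.02 to 0.42 over left-out libraries). P2ry1, Adora3, Gpr171, Casp1 and Pnp2 fell under the fold change threshold in limma on log2(FPKM + 1), and Casp1 and Pnp2 also on log2(FPKM + 0.1) and with library size only. Adora2b changed sign to -0.20 with library size only, -0.19 and -0.28 in limma with pseudocounts of 1 and 0.1, and between -0.42 and 0.32 with 1 library left out (-0.13 without control replicate 1, -0.00419 without control replicate 3, -0.42 without TgAPPsweOCN;Ai9 replicate 1), without passing the test, and the cause was not tested. With TMM-scaled CPM the P2X ratio turned to 1.04 (0.952 to 0.989 over left-out libraries), and the Gi, adenosine and Gq ratios were 0.274, 3.97 and 0.678 (0.229 to 0.267, 2.44 to 3.09 and 0.544 to 0.587 over left-out libraries). Libraries shared only replicate numbers: same-numbered libraries had correlations of deviations of 0.0127, 0.00664 and 0.141. The replicate block left 2 of the 10 genes up and 5 down, 1115 and 1147 of all genes, and gave -0.05 for Adora2b. With 3 libraries a side an exact permutation p cannot fall under 0.1.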
